A study of Mus musculus with 7 samples.

Results

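The 10 genes described here encode subunits of the ionotropic glutamate receptors, out of 23413 gene symbols in the deposited tables. They are Gria1, Gria2, Gria3 and Gria4 of the AMPA receptor family, Grin1 and Grin2b of the NMDA receptor family, and Grik1, Grik2, Grik3 and Grik5 of the kainate receptor family. They were chosen by name, with earlier results of these data known, and all 10 were listed in every library. Together they held 72605 unique molecular identifiers (UMIs) in the cells kept, 0.150% of all UMIs, and Gria2 alone held 50.9% of those 72605.

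Ionotropic glutamate receptors are channels built from four-part assemblies of subunits that open when glutamate binds. AMPA receptors carry most of the fast excitatory current, NMDA receptors need an obligatory GluN1 subunit and pass calcium when the cell is already depolarised, and kainate receptors act on both sides of the synapse and on growing axons. The subunits present set how long a channel stays open and whether calcium passes: an AMPA receptor that holds GluA2, the product of Gria2, hardly passes calcium, because its messenger RNA is edited at a codon in the pore. In the developing cortex NMDA receptors with GluN2B, the product of Grin2b, come before those with GluN2A, and interneurons are known for AMPA receptors poor in GluA2.

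The study used single-cell RNA sequencing of cortices of 7 mouse embryos from 1 litter at E18.5, with 1 Seq-Well library per embryo. The 4 mutants (replicates 10, 11, 12 and 17) were Emx1CreERT2;Ash1lfl/fl, with both Ash1l alleles floxed and a tamoxifen-dependent Cre from the Emx1 locus. The 3 controls (replicates 14, 15 and 16) were Ash1lfl/fl, floxed in the same way but without the Cre. The dam was given 100 mg/kg tamoxifen at E10.5, so mutants and controls were both exposed to it. Ash1l encodes a histone methyltransferase. Emx1 is active in the dorsal progenitors of the glutamatergic neurons, whereas most cortical GABAergic neurons arise from ventral progenitors outside that domain, so the Cre is not expected to act in most of them.

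The codon that is edited in Gria2 lies in a stretch of the pore that the AMPA subunit genes share, and it is shown because the share of Gria2 among the AMPA genes differed between the neuron classes. The stretches below are 39 coding bases each, in the sense direction, from the GENCODE annotation of mm10, each within a single coding exon. Capitals mark the glutamine codon of the editing site. Gria1 is read from the + strand at chr11:57243073-57243111 in exon 11, Gria2 from the - strand at chr3:80706896-80706934 in exon 11, Gria3 from the + strand at chrX:41610244-41610282 in exon 11 and Gria4 from the - strand at chr9:4464122-4464160 in exon 12.
Gria1: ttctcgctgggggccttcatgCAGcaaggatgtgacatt
Gria2: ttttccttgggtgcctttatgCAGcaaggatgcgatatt
Gria3: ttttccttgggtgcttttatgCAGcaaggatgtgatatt
Gria4: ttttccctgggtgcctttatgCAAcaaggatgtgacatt
The genome writes glutamine in all 4 genes. The Gria1 stretch differs from that of Gria2 at 7 bases, Gria3 at 2 and Gria4 at 4. The deposited counts give molecules per gene, so editing of this codon was not measured, and every statement on Gria2 below is about the number of its transcripts.

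On mm10 the protein-coding gene bodies are Gria1 at chr11:57011387-57330244, Gria2 at chr3:80681450-80802835, Gria3 at chrX:41400854-41678601 and Gria4 at chr9:4417896-4796234. Grin1 lies at chr2:25291181-25319187 and Grin2b at chr6:135713233-136173511. The kainate subunit genes are Grik1 at chr16:87895900-88290265, Grik2 at chr10:49094833-49788766, Grik3 at chr4:125490700-125714173 and Grik5 at chr7:25009849-25072346.

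Filters of 500 genes or more per cell and no more than 10% mitochondrial UMIs left 23005 cells (12622 mutant and 10383 control, 2114 to 4285 per embryo) with 48334984 UMIs. The median kept cell had 1242 to 2133 UMIs, depending on the embryo. A cell joined the marker list of which it expressed the most distinct genes, at least 2. This gave 1402 GABAergic neurons (146 to 336 per embryo), 2340 deep-layer neurons (182 to 501) and 4910 upper-layer neurons (442 to 985). Markers that the gate did not use followed the names. Levels below are counts per class total of 1000000 UMIs (CPM). Slc32a1, the vesicular GABA transporter, had 95.6 CPM in GABAergic, 5.34 in deep-layer and 5.94 in upper-layer neurons. Nfe2l3 had 3.68, 37.1 and 7.33 CPM in the same order, and Plxna4 162, 93.6 and 441 CPM. Neurod6, a glutamatergic gene, had 121 CPM in GABAergic neurons, 23.2% of its 523 CPM in upper-layer neurons. The cycling genes Mki67 and Top2a together had 39.3 to 283 CPM per embryo in the GABAergic class. The class called GABAergic neurons may thus include cycling cells. Free RNA and doublets were not removed, and their part in the levels below was not tested. Of all barcode sequences, 96 occurred in more than 1 library, and pairs of libraries differed in their counts by more than sampling noise. Over all cells Ash1l stood at 156 CPM (mutant 10), 157 CPM (mutant 11), 170 CPM (mutant 12) and 121 CPM (mutant 17), against 162, 217 and 206 CPM for controls 14, 15 and 16. Mutant 12 lies above control 14, so 1 mutant overlaps the controls. Its log2 fold change was -0.39 (SE 0.12, adjusted p = 0.336, edgeR). Which exons are floxed was not known here, and tags from the 3' end may come from recombined alleles too, so this level checks the labels only in part.

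The AMPA subunits came first in abundance, and their make-up separated the classes. Gria1, which encodes the subunit GluA1, was the most counted AMPA gene in GABAergic neurons, whereas Gria2 was so in deep-layer and upper-layer neurons. Gria1 rose 7.08-fold in GABAergic over upper-layer neurons and 4.85-fold in GABAergic over deep-layer neurons. Gria2 fell 2.29-fold in GABAergic against upper-layer neurons. Because each UMI marks a captured transcript end, no count was divided by gene length, and shares between genes are shares of UMIs on that scale. Transcripts may differ in how well their ends are captured.

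Over the 7 embryos, Gria1 had from 280 to 1021 CPM in GABAergic neurons, with a median of 673. In deep-layer neurons it had 110 to 157 CPM (median 124) and in upper-layer neurons 63.4 to 117 CPM (median 93.0). The lowest GABAergic sum thus lies above the highest of either glutamatergic class. The log2 fold change was 2.82 over upper-layer neurons (SE 0.11, adjusted p = 3.03e-24, edgeR) and 2.28 over deep-layer neurons (SE 0.11, adjusted p = 3.32e-20, edgeR). Deep-layer neurons were 0.52 above upper-layer neurons (SE 0.09, adjusted p = 1.76e-05, edgeR), a difference of 1.43-fold seen in 7 of 7 embryos although the class ranges overlap.

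Gria2 ran the other way. GABAergic neurons had 393 to 564 CPM (median 414), deep-layer neurons 615 to 938 CPM (median 710) and upper-layer neurons 805 to 1097 CPM (median 1015). The GABAergic range lies below both glutamatergic ranges, which overlap with each other. The log2 fold change was -1.19 in GABAergic over upper-layer neurons (SE 0.06, adjusted p = 6.03e-20), -0.77 in GABAergic over deep-layer neurons (SE 0.07, adjusted p = 2.34e-12) and -0.42 in deep-layer over upper-layer neurons (SE 0.05, adjusted p = 7.42e-10), all with edgeR. The glutamatergic gene Neurod6 stood in GABAergic neurons at 23.2% of its upper-layer level, and what part of the GABAergic Gria2 count came with such RNA was not tested.

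Gria4 encodes GluA4, a subunit with fast kinetics that is known from early synapses and from interneurons. It had 105 to 355 CPM in GABAergic neurons (median 187), 35.3 to 57.1 CPM in deep-layer neurons (median 47.0) and 53.0 to 83.3 CPM in upper-layer neurons (median 55.4). The GABAergic values lie above all the others. It was 4.08-fold higher in GABAergic over deep-layer neurons (log2 2.03, SE 0.13, adjusted p = 1.16e-16, edgeR) and 3.18-fold higher over upper-layer neurons (log2 1.67, SE 0.11, adjusted p = 8.01e-16, edgeR). Deep-layer neurons were lower than upper-layer neurons by a small margin (log2 -0.36, SE 0.11, adjusted p = 0.0083, edgeR). This last call was lost with DESeq2 (adjusted p = 0.0826), without the embryo as a block (0.0562), with a mitochondrial limit of 5% (0.115) and with 6 markers left out of the gate (0.546).

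Gria3, the X-linked gene of GluA3, was highest in deep-layer neurons. It had 15.0 to 45.0 CPM in GABAergic neurons (median 33.9), 55.7 to 113 CPM in deep-layer neurons (median 93.9) and 23.4 to 37.3 CPM in upper-layer neurons (median 30.8). The deep-layer range stands clear of the other classes, which overlap. Gria3 was 2.92-fold higher in deep-layer over upper-layer neurons (log2 1.55, SE 0.12, adjusted p = 6.18e-15, edgeR) and 3.14-fold lower in GABAergic against deep-layer neurons (log2 -1.65, SE 0.17, adjusted p = 3.45e-10, edgeR). Between GABAergic and upper-layer neurons its log2 difference was -0.11, with a 95% interval of -0.53 to 0.31. Xist, the transcript of the inactive X chromosome, was at 0.376 CPM in mutant 11 and 2.23 CPM in control 15 and at 774 to 1416 CPM in the other embryos. Over all cells Gria3 had 48.1 and 48.4 CPM in those same embryos and 30.4 to 44.3 CPM in the others. The single classes did not all follow this. In deep-layer neurons mutant 11 had 88.9 CPM and control 15 had 113 CPM, against 55.7 to 104 CPM in the others, and in upper-layer neurons mutant 11 had 36.1 CPM and control 15 had 23.4 CPM, the lowest of all 7 embryos. In GABAergic neurons they had 45.0 and 39.4 CPM, against 15.0 to 39.3 CPM in the others.

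**Figure D1:**
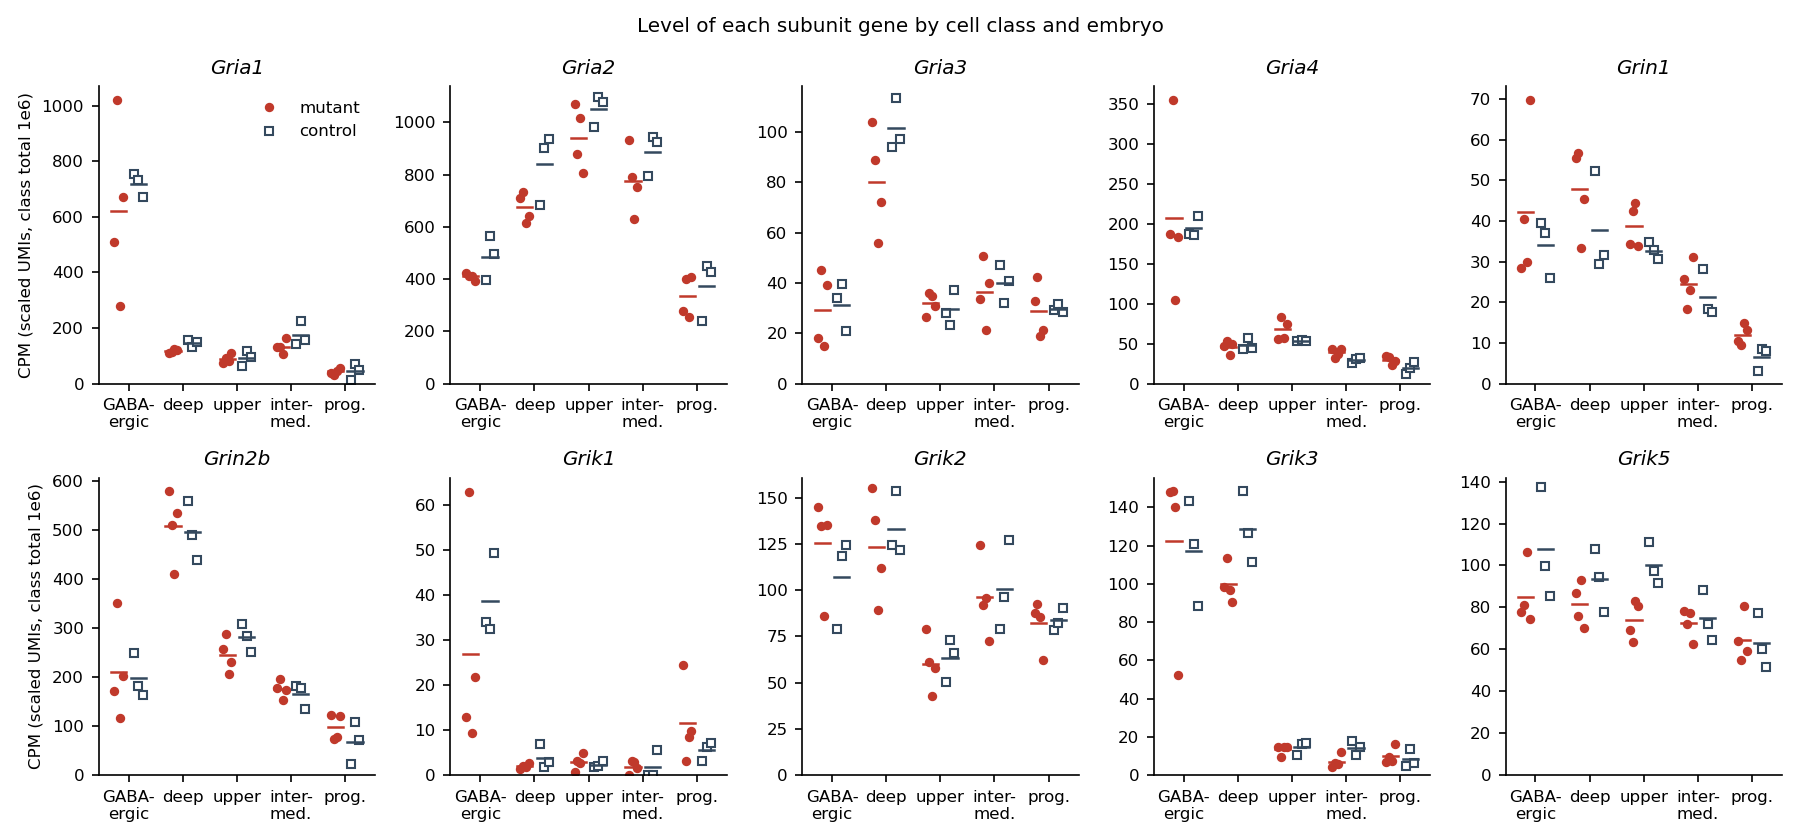
Level of each of the 10 genes in CPM (UMIs scaled to a class total of 1000000, linear axes that start at 0), by cell class; filled circles are the 4 mutants, open squares the 3 controls, and short lines the group means. "Intermed." is intermediate and migrating cells, and "prog." is progenitors. By mean, Gria1, Gria4 and Grik1 stand highest in GABAergic neurons, and Grik3 in GABAergic and deep-layer neurons. For Grik1 the progenitor range overlaps the GABAergic range.

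As shares of AMPA UMIs, Gria2 took 34.7 ± 8.84% in GABAergic, 73.6 ± 2.06% in deep-layer and 84.2 ± 3.29% in upper-layer neurons (SD, n = 7 embryos). Gria1 took 48.3 ± 7.26%, 13.0 ± 2.01% and 7.77 ± 1.86% in the same order. Gria4 took 14.8 ± 2.44% in GABAergic neurons, 4.70 ± 0.694% in deep-layer and 5.34 ± 1.49% in upper-layer neurons. The Gria2 share ranged from 22.5 to 50.8% over GABAergic sums and from 69.9 to 87.3% over all glutamatergic sums, so no GABAergic sum reached the glutamatergic range. Expressed as a ratio, there were 0.741 Gria2 UMIs per Gria1 UMI in the median embryo for GABAergic neurons (0.405 to 1.47), 6.29 for deep-layer neurons (4.35 to 6.88) and 11.5 for upper-layer neurons (7.23 to 15.5). The sum of the 4 AMPA genes differed less than its make-up: it was 1338 ± 317 CPM in GABAergic, 1012 ± 151 CPM in deep-layer and 1173 ± 97.9 CPM in upper-layer neurons, with overlapping ranges.

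**Figure D2:**
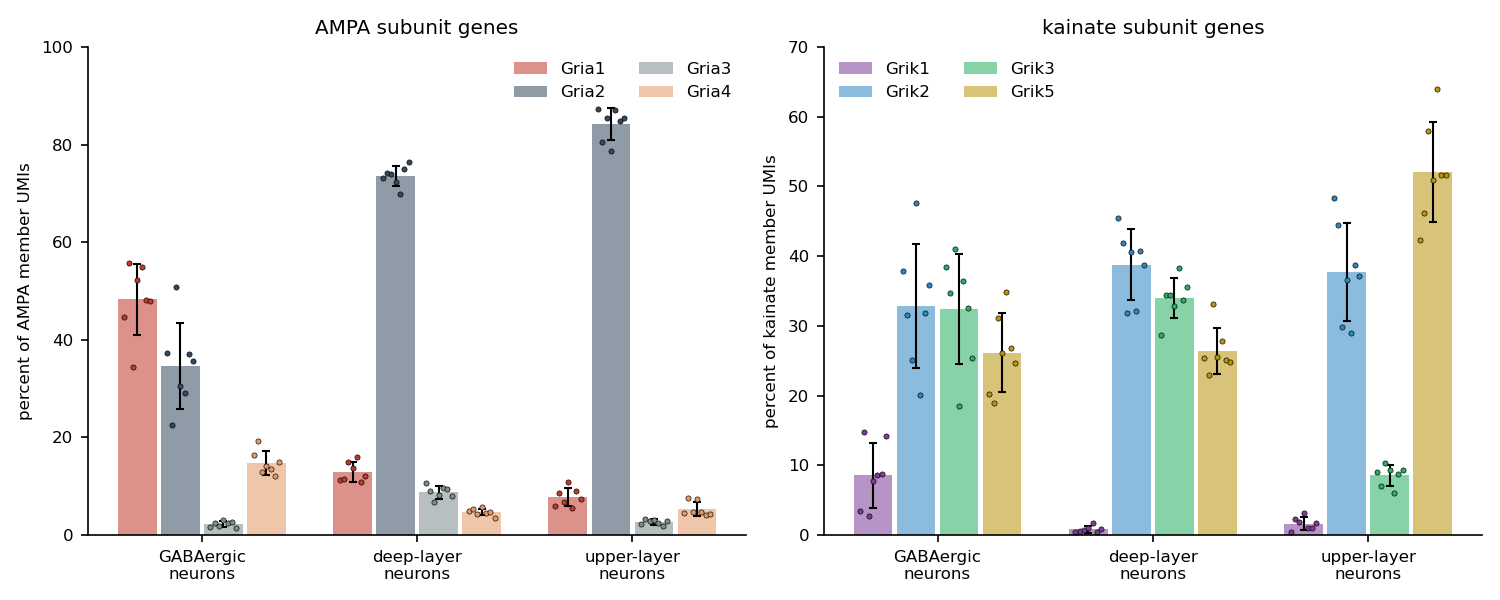
Share of each gene among the UMIs of its family, in percent, for the AMPA genes (left) and the kainate genes (right) by neuron class. Bars are means over 7 embryos, whiskers are SD and dots are embryos; Gria2 takes 34.7% of AMPA UMIs in GABAergic, 73.6% in deep-layer and 84.2% in upper-layer neurons, and Grik3 takes 8.54% of kainate UMIs in upper-layer neurons against over 30% in the other classes.

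Within the GABAergic class the AMPA make-up was not uniform. GABAergic cells with a UMI of Lhx6 or Sst, genes of interneurons from the medial ganglionic eminence, were set against those with a UMI of Adarb2, Prox1 or Sp8, genes of interneurons from the caudal eminence. This split was chosen after the data were seen, Lhx6 is also a gate marker, and no test was made. There were 438 cells of the Lhx6 or Sst kind (54 to 76 per embryo) and 344 of the other (25 to 85), with 27 cells that had both and 593 that had neither. Gria1 had 1354 CPM in pooled Lhx6 or Sst cells and 93.6 CPM in the Adarb2, Prox1 or Sp8 cells, a ratio of 14.5. By embryo the Lhx6 or Sst cells held 1007, 1935, 991 and 1043 CPM in mutants 10, 11, 12 and 17, and 1572, 1575 and 1226 CPM in control embryos 14, 15 and 16. The other cells held 37.6, 35.4, 59.3 and 0 CPM in those mutants, and 179, 155 and 12.5 CPM in those controls. The kinds of cell do not overlap in any embryo, and the second kind lies below the upper-layer mean of 90.5 CPM except in controls 14 and 15.

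Gria4 followed the same division, with 360 CPM in Lhx6 or Sst cells and 68.9 CPM in the others, and so did Gria3 with 58.3 and 5.20 CPM, of which the second rests on 4 UMIs. Gria2 did not, with 445 and 418 CPM and a higher level in the Lhx6 or Sst cells in 3 of 7 embryos. The Gria2 share of AMPA UMIs was 20.1% in Lhx6 or Sst cells and 71.4% in the other cells. For scale, the share was 73.6% in deep-layer neurons. In the 593 GABAergic cells with neither kind of marker, Gria2 took 50.1% of AMPA UMIs and Gria1 35.9%. Grik1 had 63.9 and 7.80 CPM (57 and 6 UMIs) and Grik2 195 and 52.0 CPM, each higher in the Lhx6 or Sst cells of 7 of 7 embryos. Grik3 had 103 CPM in Lhx6 or Sst cells and 134 CPM in the others and was higher in the Lhx6 or Sst cells of 1 embryo. Grik5 had 109 and 100 CPM, Grin2b 243 and 203 CPM, and Grin1 56.0 and 27.3 CPM.

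**Figure D3:**
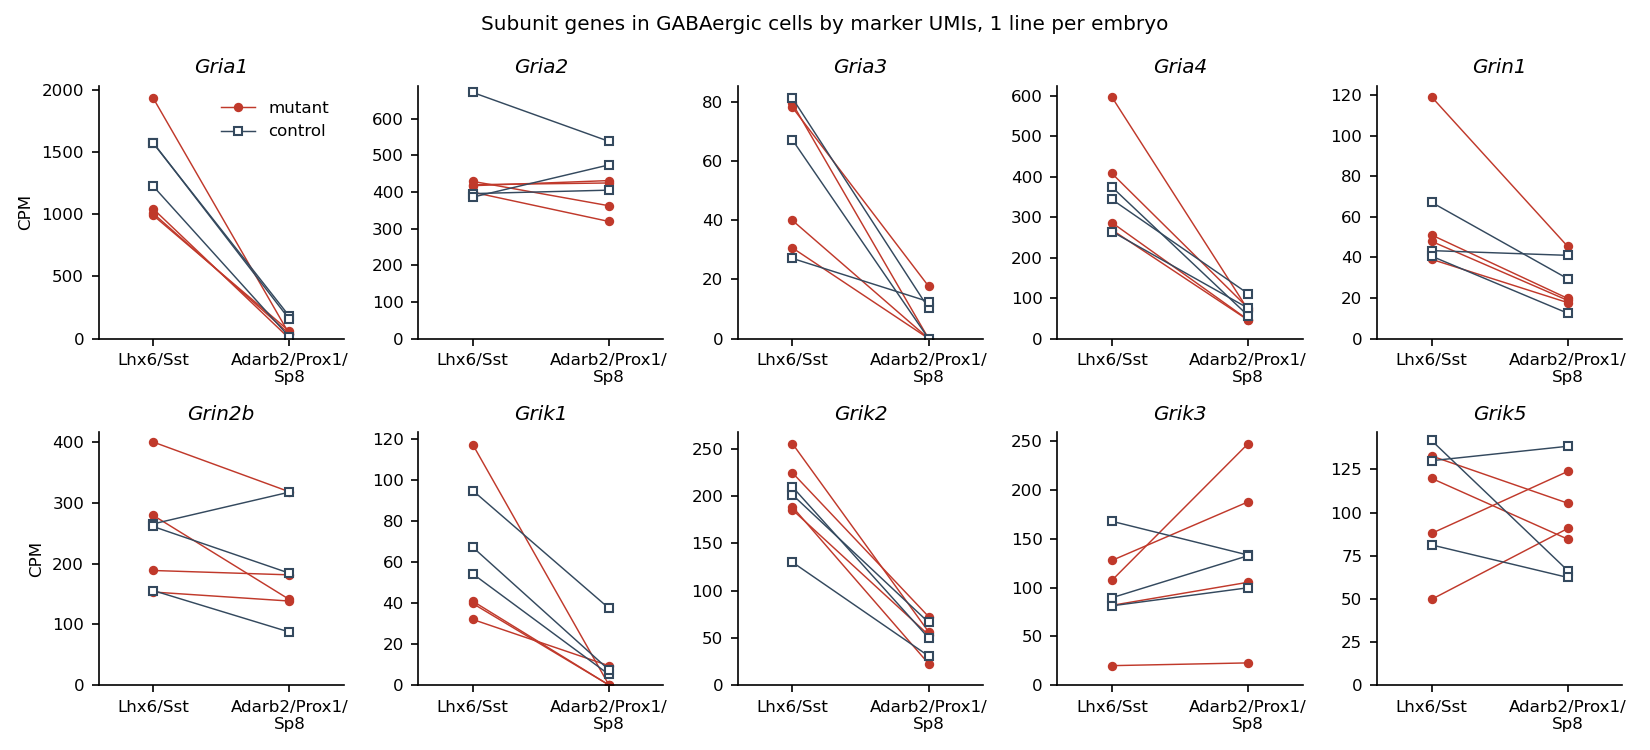
Level of each gene in CPM (linear axes that start at 0) in GABAergic cells with a UMI of Lhx6 or Sst (left) and in those with a UMI of Adarb2, Prox1 or Sp8 (right), 1 line per embryo, filled circles for mutants and open squares for controls. Lines for Gria1, Gria3, Gria4, Grik1 and Grik2 fall in all 7 embryos, as do those for Grin1, whereas those for Gria2, Grin2b, Grik3 and Grik5 do not.

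The embryos also differed in how their GABAergic cells divided. Lhx6 or Sst cells made up 30.9, 44.5, 17.3 and 39.5% of the GABAergic cells of mutants 10, 11, 12 and 17, and 36.5, 31.5 and 34.7% of those of controls 14, 15 and 16. Mutant 11, with the highest share, had the highest GABAergic Gria1 (1021 CPM), Gria3 (45.0 CPM), Gria4 (355 CPM), Grin2b (351 CPM) and Grik1 (62.9 CPM) levels. Mutant 12, with the lowest, had the lowest of each, at 280, 15.0, 105, 116 and 9.35 CPM. The other genes did not follow the shares in this way. Grik2, which was higher in the Lhx6 or Sst cells of every embryo, was highest in mutant 10 (145 CPM) and lowest in control 14 (79.2 CPM), and Grin1 was highest in mutant 17 (69.9 CPM) and lowest in control 16 (25.9 CPM). Grik3 was highest in mutant 11 (148 CPM) but lowest in mutant 17 (52.4 CPM), which was also lowest for Gria2 (393 CPM, highest in control 15 at 564 CPM) and Grik5 (74.3 CPM, highest in control 14 at 138 CPM). Mutant 12 also had the most cells with at least 2 striatal markers in the gate (13, against 0 to 5 in the others), and summed striatal marker levels were 85.6, 8.99, 155 and 17.5 CPM in mutants 10, 11, 12 and 17 and 30.2, 67.3 and 130 CPM in control embryos 14, 15 and 16. The part of these shares in the GABAergic levels was not tested.

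Of the NMDA genes, Grin2b separated the classes and Grin1 did not. Grin2b had 116 to 351 CPM in GABAergic neurons (median 181), 411 to 579 CPM in deep-layer neurons (median 509) and 207 to 307 CPM in upper-layer neurons (median 258). The deep-layer range lies above both others, and GABAergic and upper-layer ranges overlap. Grin2b was 1.90-fold higher in deep-layer over upper-layer neurons (log2 0.92, SE 0.05, adjusted p = 3.62e-19, edgeR). It was 2.59-fold lower in GABAergic against deep-layer neurons (log2 -1.37, SE 0.10, adjusted p = 6.86e-15, edgeR) and 1.36-fold lower against upper-layer neurons (log2 -0.44, SE 0.09, adjusted p = 2.38e-04, edgeR). Grin1, which encodes the subunit that every NMDA receptor needs, had 38.8 ± 14.9 CPM in GABAergic, 43.5 ± 11.8 CPM in deep-layer and 36.2 ± 5.19 CPM in upper-layer neurons (SD, n = 7). Its log2 differences did not pass the test: they were 0.02 in GABAergic over upper-layer neurons (95% interval -0.35 to 0.38), -0.20 in GABAergic over deep-layer neurons (-0.58 to 0.18) and 0.25 in deep-layer over upper-layer neurons (-0.004 to 0.50). Grin2b therefore outnumbered Grin1 most in deep-layer neurons, with 8.97 to 16.6 Grin2b UMIs per Grin1 UMI over embryos, against 2.88 to 8.67 in GABAergic neurons.

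Among the kainate genes, Grik3 and Grik2 were lower in upper-layer neurons than in both other classes, Grik5 passed in no comparison and Grik1 was not tested. Grik3 encodes GluK3, a channel subunit of low agonist affinity. It had 52.4 to 148 CPM in GABAergic neurons (median 140), 90.6 to 148 CPM in deep-layer neurons (median 112) and 9.62 to 16.7 CPM in upper-layer neurons (median 14.8). All upper-layer sums lie below all sums of the other classes. Grik3 was 8.27-fold higher in GABAergic over upper-layer neurons (log2 3.05, SE 0.17, adjusted p = 2.43e-18, edgeR) and 7.95-fold higher in deep-layer over upper-layer neurons (log2 2.99, SE 0.12, adjusted p = 1.16e-24, edgeR). GABAergic and deep-layer neurons differed by a log2 of 0.06 (95% interval -0.19 to 0.30, not called).

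Grik2 encodes GluK2, a main channel-forming kainate subunit. It had 79.2 to 145 CPM in GABAergic, 89.2 to 155 CPM in deep-layer and 42.7 to 79.2 CPM in upper-layer neurons, with medians of 124, 125 and 60.9 CPM. It was 1.84-fold higher in GABAergic over upper-layer neurons (log2 0.88, SE 0.12, adjusted p = 5.16e-08, edgeR) and 2.05-fold higher in deep-layer over upper-layer neurons (log2 1.03, SE 0.08, adjusted p = 1.87e-14, edgeR). GABAergic over deep-layer neurons gave a log2 of -0.17 (95% interval -0.40 to 0.05), which did not pass.

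Grik5 encodes GluK5, a high-affinity subunit that forms no channel of its own and joins GluK1 to GluK3. It was the flattest of the kainate genes, with 94.6 ± 22.3 CPM in GABAergic, 86.6 ± 13.0 CPM in deep-layer and 85.2 ± 16.4 CPM in upper-layer neurons (SD, n = 7, ranges overlapping). Its 3 log2 differences lay between -0.03 and 0.13, and none passed. As Grik2 and Grik3 were low in upper-layer neurons, Grik5 took 52.1 ± 7.16% of kainate UMIs there, against 26.1 ± 5.65% in GABAergic and 26.4 ± 3.28% in deep-layer neurons. Grik3 took 32.4 ± 7.92% in GABAergic, 34.0 ± 2.89% in deep-layer and 8.54 ± 1.51% in upper-layer neurons.

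Grik1, the gene of GluK1, was the rarest member, with 259 UMIs in all kept cells. It had 80 UMIs in GABAergic, 19 in deep-layer and 32 in upper-layer neurons, or 9.35 to 62.9 CPM, 1.43 to 6.92 CPM and 0.701 to 4.92 CPM. Every GABAergic sum lies above every sum of these 2 glutamatergic classes. Other classes overlap the GABAergic range: Grik1 reached 24.5 CPM in progenitors (52 UMIs) and 34.5 CPM in Cajal-Retzius cells (16 UMIs). Grik1 had too few UMIs to enter the class comparisons, so no test was made.

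**Figure D4:**
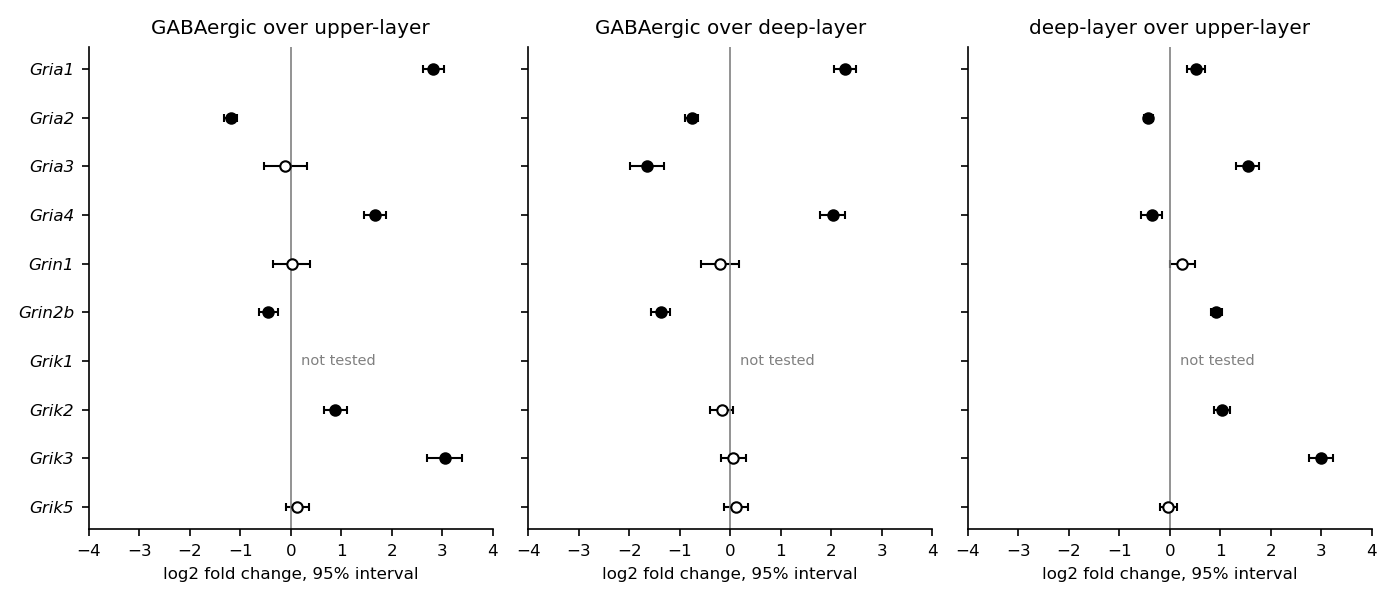
Log2 fold change between neuron classes for each gene (points, edgeR with the embryo as a block, 7 embryos) with 95% intervals; filled points passed an adjusted p of 0.05 and Grik1 was not tested. Grik3 is near 3 in both comparisons with upper-layer neurons and near 0 between GABAergic and deep-layer neurons, and Gria1 is positive in all 3.

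Read against all genes, 6 of the 9 members tested passed in GABAergic over upper-layer neurons (4 higher and 2 lower), where 30.1% of 8720 genes passed (15.0% higher and 15.1% lower). In GABAergic over deep-layer neurons 5 of 9 passed (2 higher and 3 lower), where 36.7% of 7599 genes did (17.8% higher and 18.9% lower). In deep-layer over upper-layer neurons 7 of 9 passed (5 higher and 2 lower), where 26.4% of 9416 genes did (13.3% higher and 13.1% lower). The members' median log2 fold changes were 0.13, -0.17 and 0.52 in these comparisons, beside medians of 0.01, 0.02 and -0.02 over all genes tested. Cells were gated by marker genes that are no members, and the classes were compared within embryos. The members were chosen with earlier results of these data known, so these counts describe the list only.

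Outside the 3 neuron classes, most AMPA and NMDA genes were low in progenitors and higher in intermediate and migrating cells. Gria2 had 824 ± 116 CPM in intermediate and migrating cells and 351 ± 88.8 CPM in progenitors (SD, n = 7). Grin2b had 171 ± 20.1 and 85.2 ± 35.0 CPM, Gria1 150 ± 37.5 and 43.9 ± 18.1 CPM and Grin1 23.2 ± 5.39 and 9.64 ± 3.79 CPM in the same order. Each of these 4 genes was lowest in progenitors among these 5 classes. Gria4 had 34.9 ± 6.51 and 25.2 ± 7.51 CPM. Gria3 had 38.0 ± 9.82 and 29.2 ± 7.71 CPM, and its progenitor level was near that of 2 neuron classes. These were GABAergic (30.2 ± 12.0 CPM) and upper-layer neurons (31.0 ± 5.25 CPM). Grik2 was another exception, with 98.2 ± 20.8 CPM in intermediate and migrating cells and 82.7 ± 10.2 CPM in progenitors. Both lay above its 61.4 ± 12.6 CPM in upper-layer neurons.

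Cajal-Retzius cells, the early-born Reln-positive neurons of the marginal zone (437 cells), had a make-up of their own. Grin1 was highest there of the 6 classes described (78.9 ± 28.6 CPM, above deep-layer neurons in 6 of 7 embryos with overlapping ranges). By mean, Gria4 came second to GABAergic neurons (160 ± 25.1 CPM), above upper-layer neurons in 7 of 7 embryos. It was higher in GABAergic neurons than in Cajal-Retzius cells in 5 of 7 embryos, with overlapping ranges. Gria2 took 45.3 ± 6.59% of AMPA UMIs in Cajal-Retzius cells and Gria4 22.5 ± 4.08%. Grik5 took 65.5 ± 7.48% of kainate UMIs. With 52 to 78 cells per embryo these values rest on few UMIs, and no test was made.

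Genes that work with the receptors were taken from lists by role. Among receptor auxiliary proteins, 9 of 13 tested genes rose and 1 fell in deep-layer over upper-layer neurons, where 13.3% of all genes rose and 13.1% fell. Cnih3, a chaperone of AMPA receptors, rose 5.34-fold (adjusted p = 7.05e-19), and Gsg1l, an AMPA receptor auxiliary subunit, rose 4.05-fold (adjusted p = 1.96e-11). Neto2, an auxiliary subunit of kainate receptors, rose 2.13-fold (adjusted p = 9.99e-19, all edgeR). In GABAergic over upper-layer neurons 1 of 9 auxiliary genes rose and 2 fell, a share near the 30.1% of all genes that passed there. The gene that rose was Neto1, which also encodes a kainate receptor auxiliary subunit, by 10.1-fold (adjusted p = 5.41e-15, edgeR). In GABAergic over deep-layer neurons 2 of 9 rose and 4 fell, where 17.8% of all genes rose and 18.9% fell. Neto1 was 9.07-fold higher there (adjusted p = 2.25e-13) and Cnih3 7.67-fold lower (adjusted p = 1.05e-14, edgeR). Neto1 thus stood high in GABAergic neurons and Neto2 in deep-layer neurons.

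Among 12 scaffold genes, 3 rose and 5 fell in GABAergic over upper-layer neurons (15.0 and 15.1% of all genes did). Grip1, which binds the tail of GluA2 and GluA3, rose 4.24-fold (adjusted p = 3.52e-16), and Dlg2, a postsynaptic scaffold, fell 3.22-fold (adjusted p = 5.82e-14, edgeR). In deep-layer over upper-layer neurons 3 of 12 scaffold genes rose and 0 fell, together near the 26.4% of all genes that passed there. In GABAergic over deep-layer neurons 2 of 11 rose and 5 fell, where 17.8% of all genes rose and 18.9% fell. Of the other ionotropic receptor genes, 2 could be tested in deep-layer over upper-layer neurons, and Grin3a, an NMDA subunit, rose 3.40-fold (adjusted p = 1.62e-09, edgeR). Only 1 was tested in GABAergic over deep-layer neurons, and it did not pass. None of the 8 had enough counts in GABAergic over upper-layer neurons.

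Metabotropic receptor genes, whose products couple glutamate to G proteins, were tested in part, too few to set against the share over all genes. Grm3 rose 5.37-fold and Grm5 2.75-fold in deep-layer over upper-layer neurons (adjusted p = 4.21e-20 and 2.22e-17), 2 of 3 tested. Grm5 also rose 2.22-fold in GABAergic over upper-layer neurons (adjusted p = 9.73e-08), 1 of 2 tested. Grm3 was 5.13-fold lower in GABAergic against deep-layer neurons (adjusted p = 1.23e-11, edgeR), again 1 of 2. Of the list of transporters and editing enzymes, 2 of 6 genes rose and 3 fell in GABAergic over upper-layer neurons, where 30.1% of all genes passed. One that fell, Slc1a3, is also a progenitor marker of the gate. It fell in all 3 class comparisons, so each count for this list holds a gene that the gate used. Adarb1, which encodes the enzyme that edits the Gria2 pore codon, fell 1.75-fold (adjusted p = 0.00508), and the vesicular transporter gene Slc17a6 fell 5.19-fold (adjusted p = 1.13e-12, edgeR). The Adarb1 value rests on 63 UMIs in GABAergic neurons, where mutant 10 (51.9 CPM) lay above the whole upper-layer range (30.8 to 46.2 CPM). Adarb2, a relative of Adarb1 not known to edit, rose 22.5-fold (adjusted p = 1.56e-21, edgeR). In deep-layer over upper-layer neurons, where 26.4% of all genes passed, 2 of 6 rose and 3 fell, with Slc17a7 2.38-fold higher (adjusted p = 1.94e-05) and Slc17a6 2.29-fold lower (adjusted p = 3.69e-10, edgeR). In GABAergic over deep-layer neurons 2 of 5 rose and 2 fell, where 36.7% of all genes passed, and Adarb1 was not among those that did.

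The genes whose log2(CPM + 1) followed each member most closely over the 21 sums of 3 classes and 7 embryos were ranked by Pearson's r among 8331 genes with at least 300 UMIs there. The sums share libraries and the gate, so the values describe likeness only. Those of Gria1 included Grip1 (r = 0.963) and Rph3a (0.956). For Gria4 they were Erbb4 (0.955), Maf (0.952) and Nxph1 (0.949). For Gria2 they were Atp8a1 (0.945), Limch1 (0.939) and Hs6st2 (0.939). For Grin2b they were Nckap1 (0.951), Slc6a15 (0.930) and Itfg1 (0.930). Those of Grik3 were Vcan (0.935), Bcl11b (0.918, a gate marker) and Meg3 (0.917), and those of Gria3 were Wasf1 (0.912), Dock9 (0.908) and Crym (0.905, a gate marker). Grik2 came closest to Pls3 (0.904), Pcdh19 (0.885) and Fgf13 (0.884). The flat genes had looser matches: the closest to Grin1 was Gfod2 (0.782) and the closest to Grik5 was Cherp (0.714).

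Between genotypes, no member passed the test in any grouping. The comparison asks whether deletion of Ash1l from the dorsal progenitors went with other levels of receptor transcripts. Among the gate markers, Rorb, Inhba and Gucy1a3 (upper-layer) and Foxp2, Sox5 and Hs3st4 (deep-layer) were taken as lower in mutants. Which cells entered these 2 classes may therefore depend on genotype, and an alternative gate left these 6 markers out. With edgeR, 0 of 10 members passed over all cells (0.0233% of 12893 genes did), 0 of 10 in GABAergic neurons (0% of 7087), 0 of 9 in deep-layer neurons (0.0532% of 9391) and 0 of 9 in upper-layer neurons (0.0497% of 10051). In GABAergic neurons the count of all genes was likewise 0 with edgeR and with DESeq2, and 475 genes had an unadjusted p under 0.05. Few genes of any kind passed, so the absence of calls is not particular to the receptor genes. At an unadjusted p under 0.05 stood 3 of 10 members over all cells, all lower in mutants (5.44% of all genes were), 2 of 9 in deep-layer neurons, both lower (4.12%), and 1 of 9 in upper-layer neurons, lower (5.59%). In GABAergic neurons it was 0 of 10, where 6.70% of all genes stood there in either direction. The members' median log2 fold change was -0.17 over all cells, -0.11 in GABAergic neurons, -0.18 in deep-layer neurons and -0.07 in upper-layer neurons, with medians between -0.003 and 0.01 over all genes.

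Gria2 had 732, 725, 634 and 685 CPM over all cells in mutants 10, 11, 12 and 17, and 758, 862 and 876 CPM in control embryos 14, 15 and 16. All mutants lie below all controls, which held for 1 of 10 members, and genotypes did not overlap in 9.70% of all genes. The log2 fold change was -0.28 (SE 0.11, 95% interval -0.50 to -0.06, unadjusted p = 0.0262, adjusted p = 0.428, edgeR). In deep-layer neurons Gria2 had 710, 732, 615 and 640 CPM in the mutants, and 684, 903 and 938 CPM in the controls, in the same order of embryos. There control 14 lies among the mutants, and the log2 fold change was -0.29 (SE 0.13, adjusted p = 0.549, edgeR). Deep-layer cells were 8.61, 8.02, 7.46 and 11.3% of kept cells in mutants 10, 11, 12 and 17, and 10.2, 12.6 and 11.7% in controls 14, 15 and 16, and the part of cell make-up in the all-cell values was not tested. In upper-layer neurons the Gria2 difference was -0.17 (95% interval -0.41 to 0.07) and in GABAergic neurons -0.22 (-0.54 to 0.10).

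Grik5 in upper-layer neurons had the smallest p of all members in any grouping. It had 69.4, 63.3, 82.8 and 80.6 CPM in mutants 10, 11, 12 and 17, and 111, 97.5 and 91.7 CPM in control embryos 14, 15 and 16. No mutant reached the lowest control. The log2 fold change was -0.45 (SE 0.14, 95% interval -0.72 to -0.17, unadjusted p = 0.00462, adjusted p = 0.267, edgeR), which does not pass. Gria4 went the other way in the same neurons, with 55.4, 83.3, 56.7 and 75.0 CPM in the mutants, and 53.0, 54.2 and 53.6 CPM in the controls. Mutants 10 and 12 stand close to the controls, and the log2 fold change was 0.33 (SE 0.16, adjusted p = 0.480, edgeR). These were the members in which upper-layer genotypes did not overlap, 2 of the 9 tested, where 9.63% of all genes tested did not.

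In deep-layer neurons Gria1 had 110, 114, 124 and 122 CPM in mutants 10, 11, 12 and 17, and 157, 131 and 149 CPM in control embryos 14, 15 and 16. The groups do not overlap, as in 8.17% of all genes, and the log2 fold change was -0.28 (SE 0.14, adjusted p = 0.612, edgeR). Grik3 had 98.4, 114, 96.6 and 90.6 CPM in the mutants, and 148, 127 and 112 CPM in the controls, so that mutant 11 and control 16 overlap. Its log2 fold change was -0.35 in deep-layer neurons (SE 0.16, adjusted p = 0.559) and -0.36 over all cells (SE 0.14, unadjusted p = 0.0175, adjusted p = 0.404, edgeR). Gria3 in deep-layer neurons gave -0.31 (SE 0.18, adjusted p = 0.697) and Grik5 over all cells -0.29 (SE 0.14, adjusted p = 0.476, edgeR).

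In GABAergic neurons no member had an unadjusted p under 0.05, and 0 of 10 had genotypes apart, where 6.84% of all genes had. Gria1 had 508, 1021, 280 and 673 CPM in mutants 10, 11, 12 and 17, and 752, 733 and 671 CPM in control embryos 14, 15 and 16. The mutants lie on both sides of the controls, which sit close together. The intervals are wide: the 95% interval of the log2 fold change was -0.70 to 0.23 for Gria1 and -1.64 to 0.16 for Grik1. Ash1l itself gave a log2 fold change of -0.25 in GABAergic (adjusted p = 0.852), -0.59 in deep-layer (adjusted p = 0.202) and -0.35 in upper-layer neurons (adjusted p = 0.364, edgeR).

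**Figure D5:**
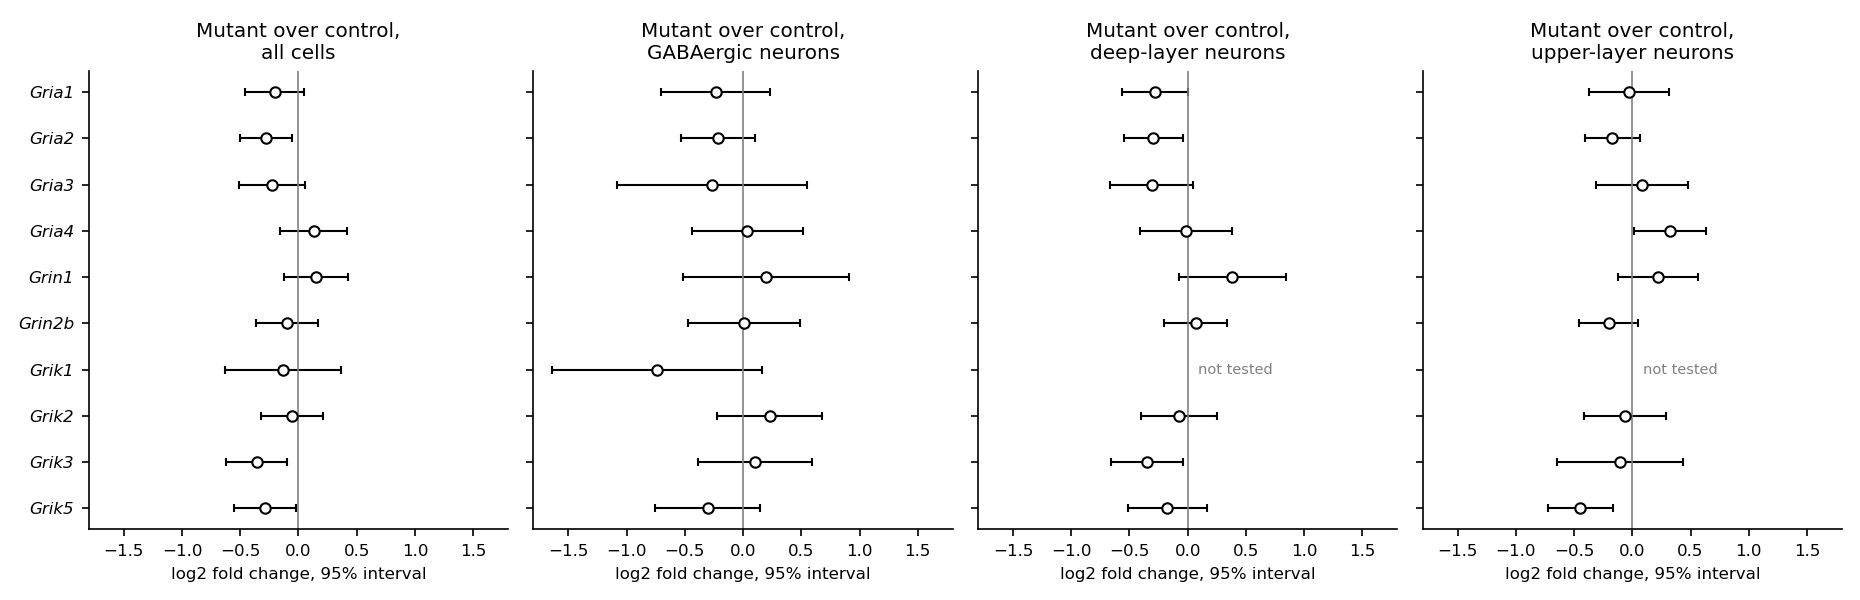
Log2 fold change of mutants over controls (points, edgeR, 4 mutants and 3 controls) with 95% intervals in all cells and in each neuron class. All points are open because no member passed an adjusted p of 0.05, and Grik1 had too few UMIs in deep-layer and upper-layer neurons. Intervals are narrower than the test: those of Gria1 in deep-layer and Gria4 in upper-layer neurons leave out 0 at an unadjusted p of 0.0587 and 0.0523 (edgeR).

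Whether the genotype difference itself varied between classes was tested with a genotype-by-class term, and no member passed: 0 of 10 for GABAergic minus upper-layer neurons (0.0209% of 9561 genes did) and 0 of 9 for deep-layer minus upper-layer neurons (0.0395% of 10115). Grin2b had the smallest p, with 579, 509, 411 and 534 CPM in deep-layer neurons of mutants 10, 11, 12 and 17, and 559, 489 and 438 CPM in those of controls 14, 15 and 16. In upper-layer neurons it had 258, 287, 207 and 231 CPM in the mutants, and 307, 283 and 252 CPM in the controls. Genotypes overlap in both classes. The log2 difference of differences was 0.27 (SE 0.10, unadjusted p = 0.00699, adjusted p = 0.774, edgeR), and 5.72% of all genes had an unadjusted p under 0.05 there. The lists of other receptor genes, auxiliary proteins, scaffolds, metabotropic receptors and transporters likewise held 0 genes that passed between genotypes in any grouping.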

How the data were processed

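For each of 7 libraries the authors deposited raw counts, as UMIs per gene and barcode, from 7083225 to 11859209 UMIs per library. Alignment used STAR with mm10, per the submitters' processing notes. The sources used here give no annotation, barcode filter or rule for collapsing UMIs. Every row had a gene name. The 10 genes, the lists and the gate were chosen with earlier results of these data known.

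Gates used 9 lists of 8 markers, and a cell with a tie joined none. Raw UMIs were summed per class and embryo (at least 20 cells). edgeR 4.0.16 (quasi-likelihood test, TMM, filterByExpr, two-sided, Benjamini-Hochberg over all genes) gave fold changes, with the embryo as a block between classes, since both class sums come from the same animal. CPM are raw UMIs scaled to a sum of 1000000. SE were derived from the edgeR test, as the absolute log2 fold change divided by the square root of the F statistic. Intervals are 1.96 SE. The fits were tried on simulated data with planted changes larger than the genotype differences of the members. They do not show the power of the test for differences of that size. The embryos come from 1 litter. DESeq2 1.42.0, other scaling, filters, gates and leaving out each embryo were alternatives. The members were all described; pathway genes were named if they passed, at most 5 per list and comparison. The split of GABAergic cells by Lhx6, Sst, Adarb2, Prox1 and Sp8 was added after seeing the data. Where genes overlap or share sequence, counting is uncertain. Intervals cover no difference between litters. One gene among those most like Gria1 is not reported here.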

Additional observations from a re-analysis of the deposited data

Results flagged for a closer look

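Among 40 sets of 4 mutant values (10 genes in 4 groupings), 2 held an embryo far from the rest, about as many as the 1 in 20 that chance gives. Grik3 in upper-layer neurons was 9.62 CPM in mutant 11, beside 14.7 to 14.8 CPM in the other mutants. Grik3 in GABAergic neurons was 52.4 CPM in mutant 17, beside 140 to 148 CPM in the other mutants. In mutant 17 Grik3 had 19.9 CPM in Lhx6 or Sst cells and 22.7 CPM in Adarb2, Prox1 or Sp8 cells. These values rest on only 2 UMIs and 1 UMI. The 60 GABAergic cells of mutant 17 with neither kind of marker held 8 of its 12 Grik3 UMIs, at 113 CPM. Among cells with neither kind of marker, that level lay above control 16 and below the other embryos. So few UMIs fix no level, and whether the low value of mutant 17 held in all its GABAergic cells was not tested.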

How the results depend on the processing

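Of the 18 calls of members between classes, 277 of 281 alternatives kept the call and 4 ended it, all for Gria4 in deep-layer over upper-layer neurons (values in the account of Gria4). The 10 genotype differences of members with an unadjusted p under 0.1 were fitted again, and none passed in any of 133 alternatives (DESeq2 gave no adjusted p for Grik3 over all cells). Values near 0 that did not pass changed sign. Grik5 in deep-layer over upper-layer neurons was 0.0020 with a mitochondrial limit of 5%, 0.047 with 6 markers (Rorb, Inhba, Gucy1a3, Foxp2, Sox5 and Hs3st4) out of the gate and -0.078 to 0.023 with 1 embryo left out. Grik3 in GABAergic over deep-layer neurons was -0.12 with 3 markers, -0.017 without the 6 and -0.032 to 0.13 with 1 embryo left out. Gria3 in GABAergic over upper-layer neurons was 0.10 with the 5% limit and -0.28 to 0.065 with 1 embryo left out. Grin1 in GABAergic over upper-layer neurons was -0.062 with no filter on low counts, -0.075 with at least 300 genes, -0.0027 with 3 markers and -0.15 to 0.13 with 1 embryo left out. Grin1 in deep-layer over upper-layer neurons passed without the 6 markers (log2 0.43, adjusted p = 0.0172). The Grik3 share in upper-layer neurons was 6.51% without the 6 markers.

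Counts of all genes called moved more. Between genotypes over all cells, 3 became 165 with no filter on low counts, 21 with DESeq2, 5 with the 5% limit and 3 to 26 with 1 embryo left out (9 without control 16 and 26 without mutant 17). In GABAergic neurons 0 became 11 with no filter and 0 to 3 with 1 embryo left out. In deep-layer neurons 5 became 2 with DESeq2 size factors in edgeR, 34 with no filter, 8 with the 5% limit, 10 with 3 markers and 1 to 11 with 1 embryo left out (11 without mutant 17). In upper-layer neurons 5 became 9 with those size factors, 87 with no filter, 17 with DESeq2, 8 with at least 300 genes, 10 with the 5% limit, 2 with 3 markers, 15 without the 6 markers and 2 to 37 with 1 embryo left out (37 without control 14). For the genotype effect in GABAergic minus upper-layer neurons 2 became 5 with no filter, 0 with DESeq2 and with the 5% limit, 1 with 3 markers and without the 6 markers, and 0 to 3 with 1 embryo left out. In deep-layer minus upper-layer neurons 4 became 10 with no filter and without the 6 markers, 2 with DESeq2, and 3 to 5 with 1 embryo left out. In deep-layer over upper-layer neurons 2486 became 1457 with DESeq2 and 1277 without the embryo as a block. Causes of these shifts were not tested. Without the block, GABAergic over upper-layer neurons gave 1905 calls and GABAergic over deep-layer neurons 2299. No paired analysis was possible between genotypes because they share no replicate numbers. Grik1, with 259 UMIs in all, is the member that depth limits most.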
